A study of Mus musculus with 6 samples.

Results

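The 10 genes described here move, store, export or sense iron: Tfrc, Slc11a2, Steap3, Slc25a37, Slc25a38, Fth1, Ftl1, Slc40a1, Ireb2 and Aco1. They were chosen by name, and all 10 were found by their gene symbol among 26014 genes measured in mouse fetal liver at embryonic day 14.5, the main organ of red cell production at that stage. The 3 wild-type libraries (WT) and the 3 libraries of a Gata1 3′ UTR knockout (KO) came from untreated embryos. Gata1 encodes a transcription factor of red cell and platelet precursors, and the 3′ UTR is the part of its messenger RNA after the stop codon. The stated aim was to find genes and pathways that change during fetal erythropoiesis. The labels do not state how much of the 3′ UTR is deleted, the strain, or how many embryos a library holds. P-values therefore measure the spread between these libraries, which may be technical.

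Red cell precursors take in more iron than other cells, since each makes haem for its haemoglobin. Iron bound to transferrin enters through the transferrin receptor, is reduced and released from endosomes, and crosses into mitochondria, where it is built into haem. What is not used is held in ferritin, and ferroportin exports iron from the cell. The iron regulatory proteins IRP1 (gene Aco1) and IRP2 (gene Ireb2) sense iron and bind a hairpin in messenger RNAs, the iron-responsive element. Bound before the coding part, as in ferritin, they block translation. Bound after it, as in the transferrin receptor, they protect the message from decay, so that element bears on the RNA level measured here.

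The elements that a search found are printed because they join the sensors to 4 of the other genes. GENCODE M21 transcripts (GRCm38) were searched on the sense strand for the loop CAGTGN, flanked on each side by 5 bases that pair with each other (G with T allowed). A C was required before the first 5-base arm. Whether that C is unpaired, and whether a stem lies below it, was not checked. In the 27-base windows below, written 5′ to 3′ with T for U, the capitals mark that C and the hairpin loop CAGTGN. Elements with other letters or pairing would be missed, so the matches need not be all elements of a gene. The 3 matches in Fth1, Ftl1 and Slc40a1 lie in the 5′ UTR, and the 4 matches in Tfrc in its 3′ UTR:
Fth1, chr19:9982733-9982759, plus strand: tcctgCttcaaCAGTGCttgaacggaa
Ftl1, chr7:45459780-45459806, minus strand: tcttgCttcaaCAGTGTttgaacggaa
Slc40a1, chr1:45925466-45925492, minus strand: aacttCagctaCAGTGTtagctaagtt
Tfrc site 1, chr16:32631220-32631246, plus strand: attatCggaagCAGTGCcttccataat
Tfrc site 2, chr16:32631599-32631625, plus strand: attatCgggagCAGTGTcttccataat
Tfrc site 3, chr16:32631664-32631690, plus strand: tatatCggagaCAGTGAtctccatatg
Tfrc site 4, chr16:32631711-32631737, plus strand: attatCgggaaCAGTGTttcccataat

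The ferritin elements share both arms of the upper stem and differ in the last base of the loop. The same search matched 31 of 20899 coding genes in the 5′ UTR (0.148%) and 129 of 21685 in the 3′ UTR (0.595%). The remaining 6 genes had no match, which says only that these letters with this pairing are not in their annotated UTRs. Alas2, the first enzyme of haem synthesis in red cells, was also matched in its 5′ UTR, at chrX:150547459-150547485 on the plus strand, with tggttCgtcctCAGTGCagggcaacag.

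The values are FPKM, fragments scaled by exon length and by the size of the library, so levels of different genes can be compared per length. Whole-fragment steps among weakly expressed genes put library depth near 14800000 to 16200000 fragments. The least covered of the 10 genes was Aco1, with 571 to 863 fragments per library. Gata1 had 142 to 166 FPKM in WT and 67.2 to 68.2 FPKM in KO, the lower values being in the libraries labelled knockout. Embryonic hepatocyte is the cell type on the labels, with no sort described. The hepatocyte genes Alb and Afp were detected, but globin chains took 22.4% to 29.6% of the summed FPKM. Of all 11142 tested genes 9.55% were called, 5.93% higher in KO and 3.62% lower (limma, log2 scale after adding 1 to each FPKM, with 0.05 as the limit of the adjusted p). The libraries of the groups did not overlap for 35.6% of tested genes, 26.8% higher and 8.80% lower.

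All 10 iron genes passed the filter of a mean FPKM of at least 1. Tfrc and Slc25a37 fell in KO, Ftl1 rose, and the other 7 did not pass. That is 2 of 10 lower and 1 of 10 higher, beside 3.62% and 5.93% of all tested genes. Libraries did not overlap for 6 of the 10, Tfrc, Slc25a37, Slc11a2 and Slc40a1 on the lower side and Ftl1 and Aco1 on the higher side, beside 8.80% and 26.8% of all tested genes. The median log2 fold change of the 10 genes was -0.09, and that of all tested genes 0.09.

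**Figure D1:**
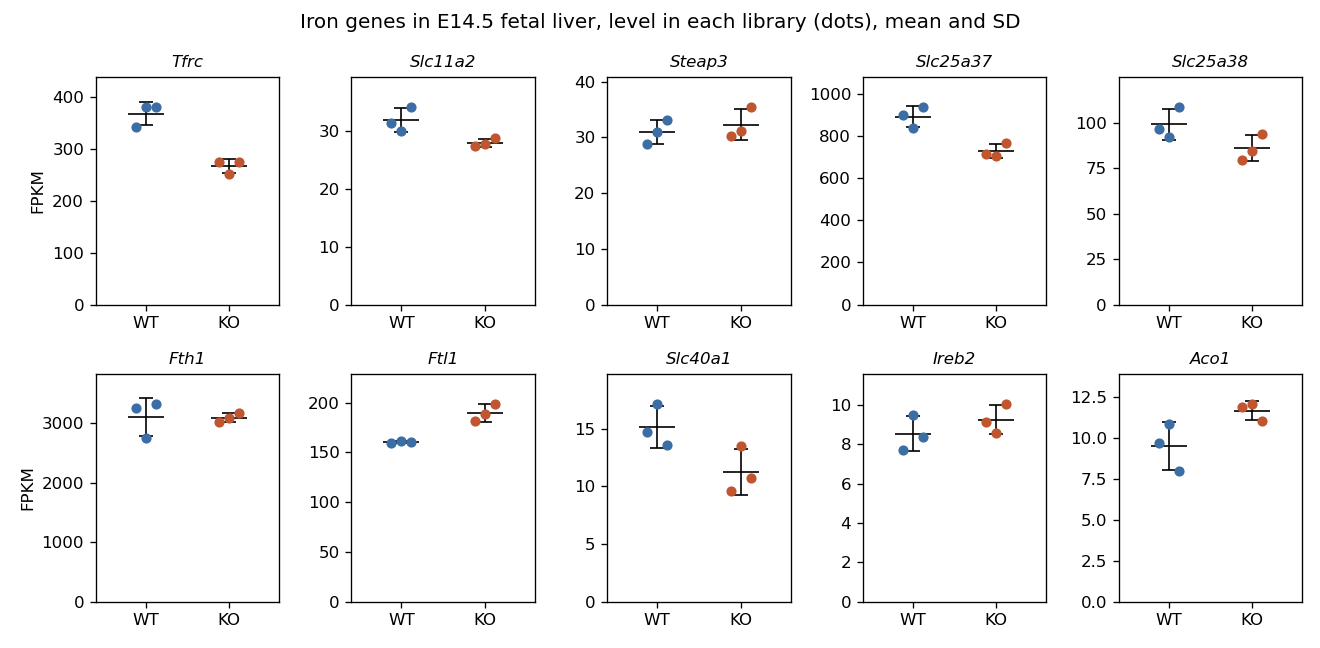
Level of each iron gene in FPKM (y axis, from 0) in the 3 WT (blue) and 3 KO (orange) libraries. Dots are libraries, the wide tick is the mean and the whiskers are the SD. Tfrc, Slc25a37, Slc11a2 and Slc40a1 lie lower in every KO library than in any WT library, and Ftl1 and Aco1 higher.

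Uptake begins with Tfrc, the transferrin receptor that carries iron-loaded transferrin into the cell. The gene, ENSMUSG00000022797, spans 32608920 to 32632794 on the plus strand of chromosome 16. Its level was 342, 381 and 381 FPKM in WT replicates 1 to 3, and 274, 252 and 275 FPKM in KO. WT replicate 1 was the lowest WT library and KO replicate 3 the highest KO library, and the groups stayed apart. KO held 72.6% of the WT level. Its log2 fold change was -0.46 (SE 0.066, 95% interval from -0.62 to -0.30, limma adjusted p = 0.0119). This call was lost without KO replicate 1 (adjusted p = 0.0524) and without KO replicate 2 (adjusted p = 0.0607).

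Steap3, the endosomal reductase that turns ferric into ferrous iron, showed no such difference. Its level was 28.9, 31.0 and 33.1 FPKM in WT and 30.2, 31.2 and 35.5 FPKM in KO. The groups overlapped, and the log2 fold change was 0.05 with a 95% interval from -0.14 to 0.24. Slc11a2, the divalent metal transporter that lets ferrous iron out of the endosome, had 31.3, 30.1 and 34.2 FPKM in WT and 27.3, 27.8 and 28.7 FPKM in KO. Each KO library was below each WT library, at 87.7% of the WT level, but the log2 fold change of -0.18 did not pass (limma, adjusted p = 0.107). The receptor and the steps after it thus differed in size of change, -0.46 for Tfrc, -0.18 for Slc11a2 and 0.05 for Steap3, and the differences between these changes were not tested.

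Slc25a37 encodes mitoferrin 1, which carries iron across the inner mitochondrial membrane in red cell precursors. The gene, ENSMUSG00000034248, lies on the minus strand of chromosome 14 from 69241848 to 69285112. It stood at 901, 836 and 938 FPKM in WT and at 712, 705 and 765 FPKM in KO. The lowest WT library was above the highest KO library, and KO held 81.5% of the WT level. Its log2 fold change was -0.29 (SE 0.066, limma adjusted p = 0.0413). Leaving out WT replicate 2 kept this call (adjusted p = 0.0365). Leaving out WT replicate 1, WT replicate 3 or any 1 KO library ended it, with adjusted p from 0.0698 without KO replicate 3 to 0.163 without KO replicate 2.

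Slc25a38, although grouped with iron carriers, is a mitochondrial glycine transporter per the deposited annotation and brings the other substrate of haem synthesis. It had 96.5, 92.2 and 108.6 FPKM in WT and 79.6, 84.4 and 93.9 FPKM in KO. KO replicate 3 reached into the WT range, and the log2 fold change of -0.20 did not pass (limma, adjusted p = 0.173). Slc25a28, mitoferrin 2, the paralogue of Slc25a37 that most tissues use, differed in the other direction. It had 15.2, 15.6 and 15.4 FPKM in WT and 17.8, 18.6 and 19.2 FPKM in KO, and its log2 fold change was 0.25 (limma adjusted p = 0.0323). That call held without WT replicate 2. Without WT replicate 1, WT replicate 3 or any 1 KO library, adjusted p ran from 0.0618 to 0.138 and the call was lost.

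Ferritin is a shell of heavy and light chains that stores iron. Fth1, the heavy chain that oxidises iron, was the most abundant of the 10 genes and ranked between 7 and 9 of all 26014 genes in each library. The deposited position is 9982703 to 9985092 on the plus strand of chromosome 19. It had 3260.5, 2749 and 3329 FPKM in WT and 3026, 3089 and 3171 FPKM in KO. WT replicate 2 was the lowest of all libraries, so the KO values fell inside the WT range. The mean of KO was 99.4% of that of WT, with a 95% interval of the log2 fold change from -0.22 to 0.21.

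Ftl1, the light chain that helps form the mineral core, rose. The gene, ENSMUSG00000050708, lies on the minus strand of chromosome 7 from 45457944 to 45459884. It had 159, 161 and 161 FPKM in WT and 181, 188 and 199 FPKM in KO. The WT libraries were nearly equal, and every KO library was higher. KO stood at 118% of the WT level, and the log2 fold change was 0.24 (SE 0.050, limma adjusted p = 0.0359). The call was lost whichever library was left out, with adjusted p from 0.0517 without WT replicate 2 to 0.137 without KO replicate 2.

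Ferritin genes have processed copies whose fragments can be split or lost in counting, and the treatment of such fragments is not stated on the labels. Among the copies in the table Ftl1-ps1 was the highest, with 3.09 to 3.49 FPKM in WT and 3.24 to 3.88 FPKM in KO. The other 4 copies stayed at or below 0.729 FPKM. The absolute level of Ftl1, and with it the ratio of the chains, is therefore uncertain.

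Slc40a1, ferroportin, the exporter of iron from cells, is abundant in macrophages and is also made by red cell precursors. It had 14.8, 17.2 and 13.6 FPKM in WT and 9.56, 13.5 and 10.7 FPKM in KO. KO replicate 2 nearly reached WT replicate 3 without overlapping it. KO held 74.1% of the WT level, close to the share for Tfrc, but the libraries scattered more and the log2 fold change of -0.41, with a 95% interval from -0.72 to -0.09, did not pass (limma, adjusted p = 0.1004). Macrophage markers summed to 98.4 to 190.2 FPKM in WT and 95.7 to 168 FPKM in KO. None of 14 was at 0 in all libraries, and 11 of 12 tested had negative log2 fold changes, none of which passed (limma, 0 at an unadjusted p under 0.05, and 0 by voom). Their part in the Slc40a1 values was not tested.

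The sensors had the lowest mean levels of the 10 genes over all 6 libraries. Aco1, which is a cytosolic aconitase when it holds an iron-sulfur cluster and IRP1 when it does not, had 9.69, 10.9 and 7.96 FPKM in WT and 11.9, 12.1 and 11.02 FPKM in KO. Every KO library was above every WT library, at 123% of the WT level. Its log2 fold change of 0.28, with an interval from 0.02 to 0.53, did not pass (limma, adjusted p = 0.144). Ireb2, which encodes IRP2, a protein degraded when iron is plentiful, had 7.72, 9.499 and 8.40 FPKM in WT and 9.14, 8.60 and 10.1 FPKM in KO. The groups overlapped, with a log2 fold change of 0.11 and an interval from -0.11 to 0.32. These are messenger levels, and IRP activity is set largely on the protein.

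**Figure D2:**
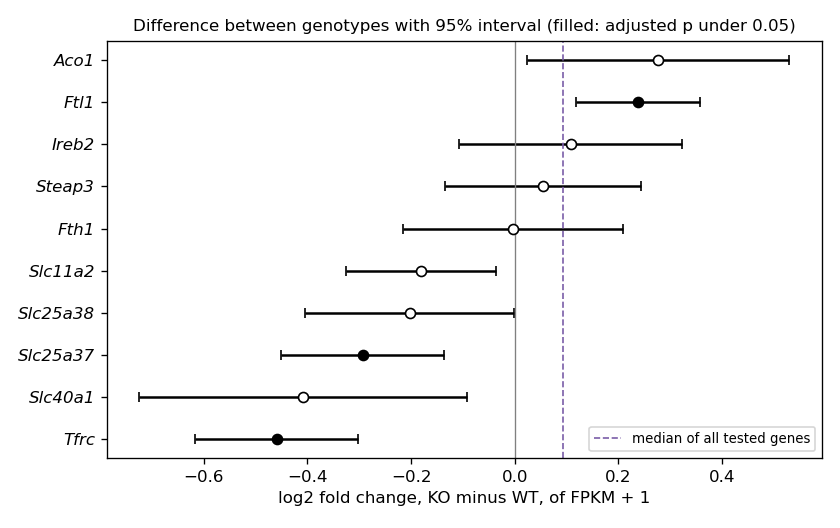
Log2 fold change of FPKM + 1, KO minus WT (x axis), of each iron gene (y axis). Bars are 95% intervals from limma, filled dots passed at an adjusted p under 0.05, and the dashed line is the median of all tested genes, 0.09. Tfrc (-0.46) and Slc25a37 (-0.29) passed on the lower side and Ftl1 (0.24) on the higher side.

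Per length, the WT means ran from Fth1 (3113 FPKM) through Slc25a37 (892), Tfrc (368), Ftl1 (160), Slc25a38 (99.1), Slc11a2 (31.9), Steap3 (31.0), Slc40a1 (15.2) and Aco1 (9.51) to Ireb2 (8.54). The neighbours Slc11a2 and Steap3 overlapped in WT, as did Aco1 and Ireb2, and all other neighbours were apart. In KO, Steap3 (32.3 FPKM) stood above Slc11a2 (28.0 FPKM) with no overlap. Aco1 (11.7 FPKM) and Slc40a1 (11.2 FPKM) overlapped there, and so did Slc40a1 and Ireb2 (9.27 FPKM).

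Ratios within a library do not depend on how libraries were scaled. The ratio of Ftl1 to Tfrc, the storage light chain against the receptor, was 0.466, 0.423 and 0.422 in WT and 0.661, 0.747 and 0.721 in KO. On the log2 scale it was -1.20 ± 0.082 in WT and -0.50 ± 0.091 in KO (SD, n = 3 each), a difference of 0.70. Of the 10 genes Ftl1 alone was called higher, and Tfrc had the lowest log2 fold change. The gap in this ratio therefore restates the changes of Ftl1 and Tfrc and is no further support for them. The ratio of Fth1 to Ftl1 was 20.5, 17.1 and 20.7 in WT and 16.7, 16.4 and 16.0 in KO. These groups did not overlap, although WT replicate 2 came close to KO.

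The ratio of Slc25a37 to Tfrc overlapped between the groups, at 2.64, 2.20 and 2.46 in WT and 2.60, 2.80 and 2.78 in KO. The ratio of mitoferrin 1 to mitoferrin 2, chosen after the values of Slc25a28 were seen, was 59.1, 53.6 and 60.9 in WT and 39.9, 37.9 and 39.9 in KO. Its groups were far apart, with a log2 difference of -0.56. This gap too restates the changes of its parts, Slc25a37 and Slc25a28, and is no further support for them. Mitoferrin 1 remained the more abundant of the pair in every library.

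**Figure D3:**
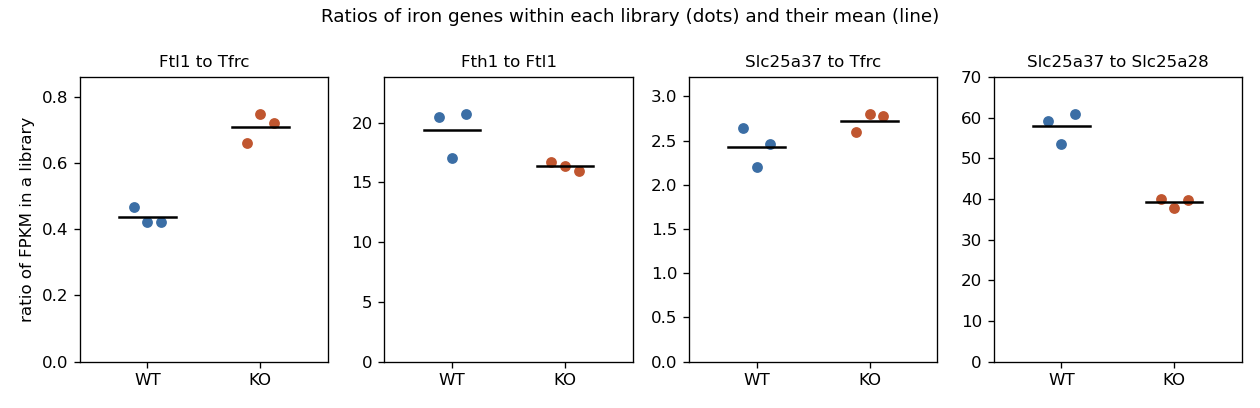
Ratio of the FPKM of a pair of genes in each library (y axis, from 0), for 3 WT (blue) and 3 KO (orange) libraries, with the mean as a line. Ftl1 to Tfrc was 0.422 to 0.466 in WT and 0.661 to 0.747 in KO, and Slc25a37 to Slc25a28 was 53.6 to 60.9 in WT and 37.9 to 39.9 in KO.

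In RNA from a whole organ fewer cells of a type and less RNA per cell cannot be told apart. Of 13 tested erythroid markers 6 fell and none rose, beside 3.62% and 5.93% of all tested genes. Tspo2 and Kel had positive log2 fold changes, 0.23 and 0.11, which did not pass. Epb42, a red cell membrane protein, went from 176 ± 4.404 to 147 ± 7.70 FPKM (limma, adjusted p = 0.0348), and Klf1, an erythroid transcription factor, from 303 ± 26.4 to 237 ± 11.4 FPKM (adjusted p = 0.0372). Both calls held without WT replicate 2 and were lost when any other 1 of the libraries was left out, with adjusted p up to 0.143. The mean log2 FPKM of these 13 markers was 9.21, 9.06 and 9.25 in WT and 8.92, 8.94 and 9.04 in KO, lower by 0.21 in KO on average.

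Set against that mean in the same library, the genes fell into several patterns. The log2 ratio of Tfrc to the markers was -0.79, -0.49 and -0.68 in WT and -0.82, -0.96 and -0.93 in KO, still lower in every KO library by a narrow gap. That of Slc25a37 was 0.61, 0.65 and 0.62 in WT and 0.56, 0.52 and 0.54 in KO, lower by 0.09 on average. Slc25a38 and Slc11a2 hardly differed from the markers, with log2 ratios that differed by 0.00 and 0.02 between the group means and overlapped.

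Both ferritin chains stood higher relative to the markers. The log2 ratio of Ftl1 was -1.89, -1.73 and -1.92 in WT and -1.42, -1.38 and -1.40 in KO, a difference of 0.45. For Fth1 it was 2.43 ± 0.055 in WT and 2.63 ± 0.033 in KO (SD, n = 3 each), with no overlap. Aco1 and Steap3 were also higher in every KO library by this measure, by 0.51 and 0.26 on average, whereas Ireb2 and Slc40a1 overlapped. The log2 fold changes of Fth1 and Steap3 themselves were -0.003 and 0.05, so their higher ratios mostly restate the fall of the markers. The part of a change in cell makeup in these values was not tested.

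The other genes of iron and haem handling, 9 lists with 83 genes in the table, gave 68 tested genes outside the 10 named at the start. Of these 2 rose and 6 fell, beside 5.93% and 3.62% of all tested genes, and their median log2 fold change was -0.03. None of 6 tested uptake genes passed, 1 had an unadjusted p under 0.05 and 1 passed by voom. In that list Tfr2, the second transferrin receptor, which tunes the response to erythropoietin, had 29.0 ± 0.968 FPKM in WT and 27.7 ± 0.861 in KO (limma, adjusted p = 0.434). Snx3, a sorting protein that returns the transferrin receptor to the cell surface, had 134 ± 6.85 and 157 ± 6.84 FPKM and passed by voom alone (adjusted p = 0.0428). Trf, the liver-made transferrin itself, was below the filter, where WT libraries had 0.170 to 0.724 FPKM and KO libraries 0.366 to 0.824 FPKM.

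Of 5 tested genes that deliver iron to ferritin, release it or control ferritin genes, none passed (limma, 2 at an unadjusted p under 0.05, 0 of 4 by voom). Ncoa4, the receptor that takes ferritin to the lysosome, had 127 ± 1.85 FPKM in WT and 116 ± 6.73 in KO. Pcbp1, a chaperone that loads iron into ferritin, had 219 ± 6.72 and 243 ± 8.19 FPKM. None of 5 tested sensing partners passed (limma, 0 at an unadjusted p under 0.05, 0 of 4 by voom), among them Fbxl5, which marks IRP2 for destruction, and Hif1a. None of 4 tested systemic regulators passed (limma, 1 at an unadjusted p under 0.05, 0 of 3 by voom), with Id1, a target of the signal that induces hepcidin, and Smad5 having the smallest p. The log2 fold changes of Id1 and Smad5 were 0.33 and 0.16.

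Of 3 tested haem transporters in the list of iron and haem export 2 fell, beside 3.62% of all tested genes. Slc48a1, a transporter of endosomes and lysosomes rather than an exporter from the cell, went from 116 ± 9.27 to 90.4 ± 2.19 FPKM (limma, adjusted p = 0.0252). Abcg2, which exports haem and porphyrins among many substrates, went from 38.5 ± 2.94 to 29.7 ± 1.67 FPKM (limma, adjusted p = 0.0313). Slc48a1 lost its call without WT replicate 3 or any 1 KO library (adjusted p up to 0.111), and Abcg2 kept its call only without WT replicate 1 (elsewhere up to 0.124). Of 4 haem breakdown genes 1 rose, beside 5.93% of all tested genes. It was Hmox2, the constitutive haem oxygenase, from 10.3 ± 0.970 to 13.1 ± 0.706 FPKM (limma, adjusted p = 0.0497, kept only without WT replicate 2 and otherwise up to 0.180 with a library left out). Hmox1, the inducible form, had 52.0 ± 7.76 and 56.2 ± 15.3 FPKM.

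In mitochondria 20 genes of iron and iron-sulfur cluster handling were tested, of which 1 rose, Slc25a28, 2 fell and 17 did not pass. Of all tested genes 5.93% rose and 3.62% fell. The 2 mitochondrial genes that fell were Isca1 and Iba57, which act together in the late step that builds larger clusters. Isca1 went from 94.1, 98.1 and 104 FPKM in WT to 73.0, 73.8 and 79.2 FPKM in KO, and its log2 fold change was -0.39 (limma adjusted p = 0.0140). Iba57 had a log2 fold change of -0.30 (adjusted p = 0.0441). Isca1 lost its call without KO replicate 1 (adjusted p = 0.0745) or KO replicate 2 (0.0753), and Iba57 kept its call only without WT replicate 2 (otherwise up to 0.164). None of 9 cytosolic assembly genes passed (limma, 0 at an unadjusted p under 0.05, 0 of 8 by voom), with Fam96a at -0.16 and Ndor1 at 0.12.

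Of 12 haem synthesis genes 2 fell, Alas2 and Fech, the first and the last step, beside 3.62% of all tested genes. Alas2, whose message carries the element printed above, had a log2 fold change of -0.43 and Fech, which inserts iron into the ring, of -0.33. Alas2 lost its call without KO replicate 1 (adjusted p = 0.0877) or KO replicate 2 (0.0901), and Fech kept its call only without WT replicate 2 (otherwise up to 0.113). Of 9 tested messages with a textbook iron-responsive element 1 rose, Ftl1, and 2 fell, Tfrc and Alas2, beside 5.93% and 3.62% of all tested genes. By voom 4 of 7 tested passed. Of those with the element in the 5′ UTR, Ftl1 rose and Alas2 fell, while Fth1 (-0.00) and Slc40a1 (-0.41) did not pass. The 3 tested messages with a textbook element in the 3′ UTR were Tfrc (-0.46), Slc11a2 (-0.18) and Cdc42bpa (-0.28). Of these the search above matched Tfrc alone and found no element in Slc11a2 or Cdc42bpa. All 3 messages were lower in every KO library than in any WT library, as were 8.80% of all tested genes. Tfrc alone passed (limma, adjusted p = 0.107 for Slc11a2 and 0.0563 for Cdc42bpa). Cdc14a, a further textbook message of this kind and also without a match, was below the filter and went the other way. It had 0.750 to 0.829 FPKM in WT and 0.834 to 1.02 FPKM in KO. Cdc42bpa, a kinase, and Cdc14a were named after their values were seen.

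**Figure D4:**
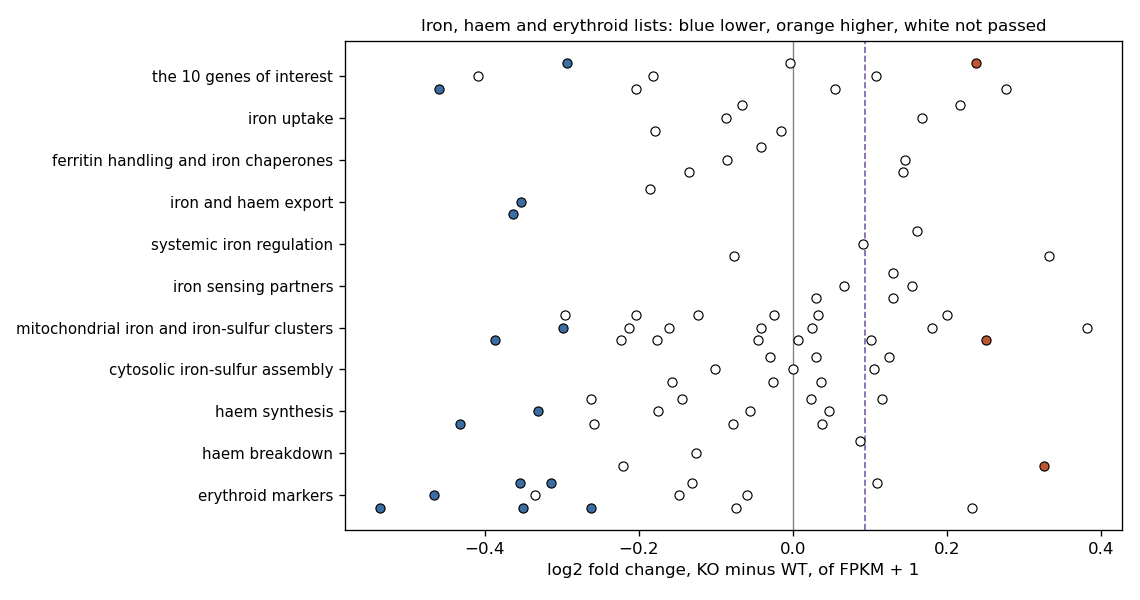
Log2 fold change of FPKM + 1, KO minus WT (x axis), of the tested genes of each list (y axis; the vertical offset within a list only separates dots). Blue genes were lower and orange genes higher at an adjusted p under 0.05, white ones did not pass, and the dashed line is the median of all tested genes, 0.09. Of 13 erythroid markers 6 were lower, and of the 10 iron genes 2 were lower and 1 higher. Of all tested genes 3.62% were lower and 5.93% higher.

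Among 6722 other tested genes with a mean of at least 5 FPKM, those whose 6 centred log2 values lay closest to Tfrc were Itga4, the integrin alpha 4 chain, Pi4k2b, a lipid kinase, and C330018D20Rik, at root mean square distances of 0.022, 0.026 and 0.032. Those closest to Ftl1 were Slc25a28, Ankrd52 and Tom1l1, at 0.014, 0.015 and 0.018. With 6 libraries of 2 genotypes, this likeness consists mostly of an equal shift between the groups.

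Directions of most genes did not hinge on the scaling of libraries, but the calls did. With median-of-ratios scaling the log2 fold change of Tfrc was -0.58, with equal sums per library (TPM) -0.34 and with equal sums of all genes other than globins -0.42. The call of Tfrc was kept with the first (adjusted p = 0.0136) and lost with the others (adjusted p = 0.118 and 0.152). Those of Slc25a37 and Ftl1 were lost with all 3. For equal sums, WT replicate 1 stood apart, its values being divided by 1.163. The factors of the other libraries ran from 0.948 to 0.998. With non-globin sums the same library again had by far the largest factor, but not with median-of-ratios scaling. Whether the calls were lost through this library alone was not tested. The median of all tested genes moved from 0.09 as deposited to -0.01, 0.20 and 0.13 under these scalings. Fth1 (0.12 with equal sums, 0.04 with non-globin sums) and Steap3 (-0.06 with median-of-ratios) changed sign.

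**Figure D5:**
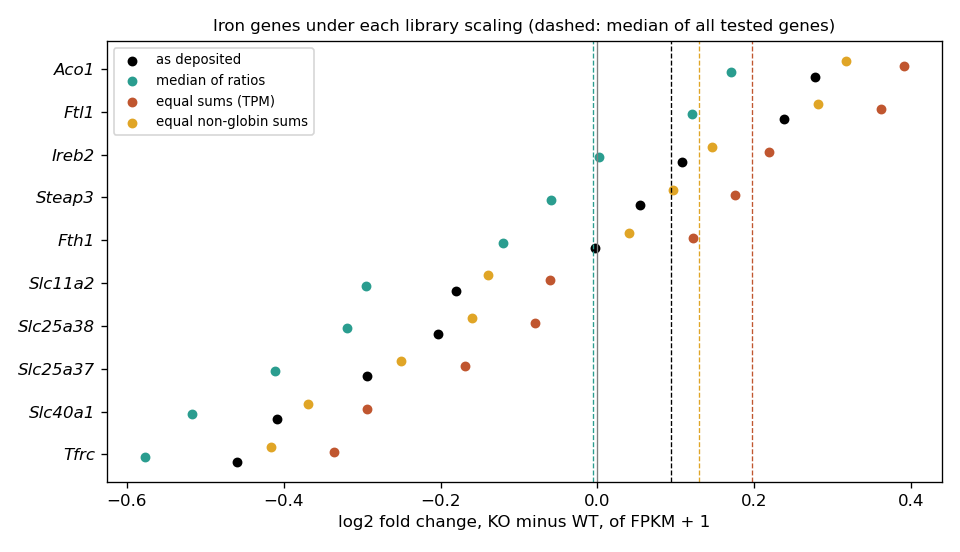
Log2 fold change of FPKM + 1, KO minus WT (x axis), of the 10 iron genes (y axis) as deposited and under 3 other scalings of the libraries, each in its colour. Dashed lines are the medians of all tested genes under each scaling, from -0.01 to 0.20. Tfrc ran from -0.58 to -0.34 and Ftl1 from 0.12 to 0.36.

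Markers of other cells varied between libraries. Hepatocyte markers summed to 429 to 2570 FPKM in WT and 1131 to 1525 in KO, their sum being lowest and highest in WT libraries, with none of 12 passing (limma, 0 at an unadjusted p under 0.05, 0 of 9 by voom). Neutrophil markers did not pass either (0 of 8, limma, 0 at an unadjusted p under 0.05, 0 of 8 by voom). Megakaryocyte markers were higher, 202 to 400 FPKM in WT and 427 to 770 in KO, with 7 of 10 rising, beside 5.93% of all tested genes. None of these lists had a marker at 0 in all libraries, and their part in the iron genes' values was not tested.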

How the data were processed

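The deposited values are FPKM, 1 per gene in each library. Per the labels' protocols, RNA was extracted with TriZol and read from both ends over 150 bases. Aligner, counting program, build and strand: not given in the sources used here. GENCODE M21 holds 25935 of the 26014 identifiers, 23607 of them at the same positions, so coordinates are given as GRCm38; Fth1 is an exception. Broken lines (7 spilled, 1 empty) were left out and 24 names turned into dates were restored.

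With merged exon lengths 98.8% to 99.0% of low values were whole fragments within 0.02. At 3 fragments, a gene of 1 kb would read 0.185 to 0.202 FPKM, which covers counting error only. The test was limma 3.58.1 in R 4.3.3 (trend, two-sided) on log2 of FPKM + 1, which understates changes of low genes, over 11142 genes with a mean of at least 1, with Benjamini-Hochberg adjustment over all of them and without a replicate block. It was checked on simulated data. Python 3.11.15, pandas 2.3.3 and matplotlib 3.10.9 were also used.

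The 10 genes and all 16 lists (155 genes, 152 in the table) were chosen with earlier results of these data known. Besides the 10, up to 4 called genes of a list, or the 2 with the smallest p, were named, and further ones (such as Tfr2, Trf and Hmox1) were picked once their values had been seen. A few genes that this rule names are not reported here. Alternatives were another pseudocount, filters, scalings, a replicate block, each library left out and, chosen after seeing the data, limma's voom on recovered fragments.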

Additional observations from a re-analysis of the deposited data

How the results depend on the processing

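Counts of higher and lower genes (661 and 403) became 267 and 246 with no filter, 219 higher with median-of-ratios scaling, 134 lower with TPM scaling and 330 and 135 with non-globin scaling, and ran from 62 to 736 higher and 111 to 395 lower with a library left out. Among the 10 iron genes (1 higher, 2 lower) none was higher (0) with no filter, median-of-ratios, TPM or non-globin scaling or a replicate block; 1 was lower, Tfrc, with no filter or median-of-ratios scaling, and 0 with TPM or non-globin scaling (limma; 3 and 4 had an unadjusted p under 0.05, and voom called 3). With a library left out 0 were higher each time and 0 to 2 lower; 0 were called without KO replicate 1 or KO replicate 2. Tfrc kept its call in 10 of 14 alternatives, Slc25a37 in 5 and Ftl1 in 3.

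Over all tested genes replicate numbers did not consistently pair the libraries: deviations of same-numbered libraries correlated at -0.097, 0.012 and 0.256. WT replicate 3 alone correlated best with the KO library of its number. Pairing within sets of genes, such as cell type markers, was not tested. With the replicate block 686 genes were higher and 386 lower, the call of Ftl1 was lost (adjusted p = 0.0542) and Slc40a1 passed (adjusted p = 0.0366). Fth1 changed sign without WT replicate 1 (0.03), WT replicate 3 (0.048) or KO replicate 1 (0.01) and with TPM (0.12) or non-globin scaling (0.040), and Steap3 with median-of-ratios (-0.060) and without KO replicate 3. With a library left out Steap3 ran from -0.014 to 0.102, Fth1 from -0.090 to 0.048, Afp from -0.16 to 1.12 and Apoa2 from -0.16 to 0.87, the last 2 changing sign without WT replicate 3. The cause was not tested. With 3 libraries a genotype, the limma adjusted p of Ftl1 (0.0359) and Slc25a37 (0.0413) lay near the limit of 0.05.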
